A study of Mus musculus with 6 samples.

Results

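This account concerns 33 genes of mitosis and cytokinesis measured in unfractionated marrow of mice with inducible c-Jun. Their probe sets, the groups of short array probes that together read 1 transcript, were chosen by gene symbol in the authors' deposited comparison table, without use of any signal. The list of genes itself was drawn up with earlier results of these data known. A probe set was taken only where its single symbol was a listed gene, which gave 67 of 45101 probe sets for 32 of the 33 genes. Of these genes, 11 had 1 probe set and 21 had several. Mad2l1, a spindle checkpoint protein, is read only by 1 probe set that carries a further symbol and has no value here, and 4 probe sets shared by Ccnb1 and Gm5593 were left out for the same reason.

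The 3 induced arrays came from c-Jun inducible mice whose water held doxycycline, the inducing antibiotic, at 1 mg/ml over 24 h (day 1), and the 3 control arrays from c-Jun inducible mice without induction (day 0). The control animals therefore carry the inducible c-Jun as well, and the antibiotic, the induction and the day differ between the groups together. All mice were 8 weeks old, each array held whole bone marrow RNA pooled from 3 mice, and the labels name the samples biological replicates. The promoter that drives the inducible gene is not given in the sources used here. c-Jun belongs to the AP-1 family of transcription factors, and the comparison asks how marrow RNA stands 24 h after its induction.

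Dividing cells switch on a common set of genes late in the cell cycle. Cyclin B with Cdk1 drives entry into mitosis, Aurora and Polo kinases build the spindle, the kinetochore attaches chromosomes to it, and the spindle checkpoint holds back the anaphase promoting complex until every chromosome is attached; a contractile ring then splits the cell. In the marrow the dividing cells are mainly erythroblasts, early granulocyte precursors and early B cells, while mature blood cells have left the cell cycle. In bulk RNA, fewer cells of a type and less RNA per cell cannot be told apart.

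Many of these genes are switched by a shared promoter layout, the cell cycle genes homology region (CHR), bound by the MuvB complex, together with CCAAT boxes bound by the factor NF-Y. The RefSeq promoter table (GRCm38.p6, 250 bases before to 50 bases after each annotated gene start) held a window for 27 of the 33 genes. The windows of the genes that fell after induction and are in that table are printed here, since they show how far those genes share this layout. Capitals mark matches on either strand to TTTGAA or TTTAAA (both forms of the CHR) and to CCAAT, so that TTCAAA and ATTGG stand for the opposite strand; TTTAAA reads the same on both strands.
Birc5 (chr11:117848987-117849286, plus strand): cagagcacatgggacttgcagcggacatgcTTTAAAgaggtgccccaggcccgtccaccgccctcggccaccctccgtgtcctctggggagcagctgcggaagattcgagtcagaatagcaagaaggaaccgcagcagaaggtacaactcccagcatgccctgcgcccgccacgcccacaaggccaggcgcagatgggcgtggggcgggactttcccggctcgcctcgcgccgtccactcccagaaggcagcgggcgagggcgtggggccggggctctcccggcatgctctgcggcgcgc
Mki67 (chr7:135716330-135716629, minus strand): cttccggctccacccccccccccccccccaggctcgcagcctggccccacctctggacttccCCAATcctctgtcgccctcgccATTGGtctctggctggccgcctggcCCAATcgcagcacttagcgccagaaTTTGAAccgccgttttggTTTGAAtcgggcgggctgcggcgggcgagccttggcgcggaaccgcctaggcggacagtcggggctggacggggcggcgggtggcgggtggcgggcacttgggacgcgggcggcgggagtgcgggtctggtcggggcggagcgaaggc
Cdca8 (chr4:124936868-124937167, minus strand): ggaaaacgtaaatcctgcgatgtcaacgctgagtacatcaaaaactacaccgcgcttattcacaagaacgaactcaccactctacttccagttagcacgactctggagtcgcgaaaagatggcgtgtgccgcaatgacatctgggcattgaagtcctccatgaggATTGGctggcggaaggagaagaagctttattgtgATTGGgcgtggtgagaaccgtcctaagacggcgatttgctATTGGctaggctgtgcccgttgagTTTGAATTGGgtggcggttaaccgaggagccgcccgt
Cdc25b (chr2:131186698-131186997, plus strand): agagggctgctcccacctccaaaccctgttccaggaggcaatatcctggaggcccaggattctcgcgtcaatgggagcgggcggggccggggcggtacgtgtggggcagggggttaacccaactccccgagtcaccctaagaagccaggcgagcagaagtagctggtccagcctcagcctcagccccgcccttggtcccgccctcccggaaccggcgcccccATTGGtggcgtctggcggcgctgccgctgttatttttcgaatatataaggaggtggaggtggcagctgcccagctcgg
Kif23 (chr9:61946750-61947049, minus strand): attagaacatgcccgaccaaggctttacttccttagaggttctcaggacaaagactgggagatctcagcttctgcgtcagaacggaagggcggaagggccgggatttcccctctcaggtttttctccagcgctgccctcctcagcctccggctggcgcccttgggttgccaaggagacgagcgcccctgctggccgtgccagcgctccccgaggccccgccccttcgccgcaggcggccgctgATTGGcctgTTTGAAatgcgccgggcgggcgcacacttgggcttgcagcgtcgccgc

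Mki67 held 3 CCAAT matches upstream of a pair of CHR matches, and Cdca8 held 4 CCAAT matches, the last of which shares a base with its CHR match just after the gene start. Kif23 held 1 match of each kind, close together at the start. Birc5 held a single CHR match far upstream and Cdc25b a single CCAAT match, so the layout in the forms searched was not common to all of them. Over the 29 windows of the 27 genes, 24 (82.8%) held a CHR match, against 27.6% of all 32851 windows in the table. TTTGAA was in 72.4% of the members' windows and in 17.9% of all, and TTTAAA in 27.6% and 13.2%. CCAAT was in 79.3% and 37.4%, and both a CHR and a CCAAT match were in 72.4% and 10.7%. Both kinds of match were in 3 of the 5 genes called lower and in 16 of the 21 that were not called, while the window of Mad2l1, which was not measured, held none. A match is a description of the letters and was not tested for binding.

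**Figure D1:**
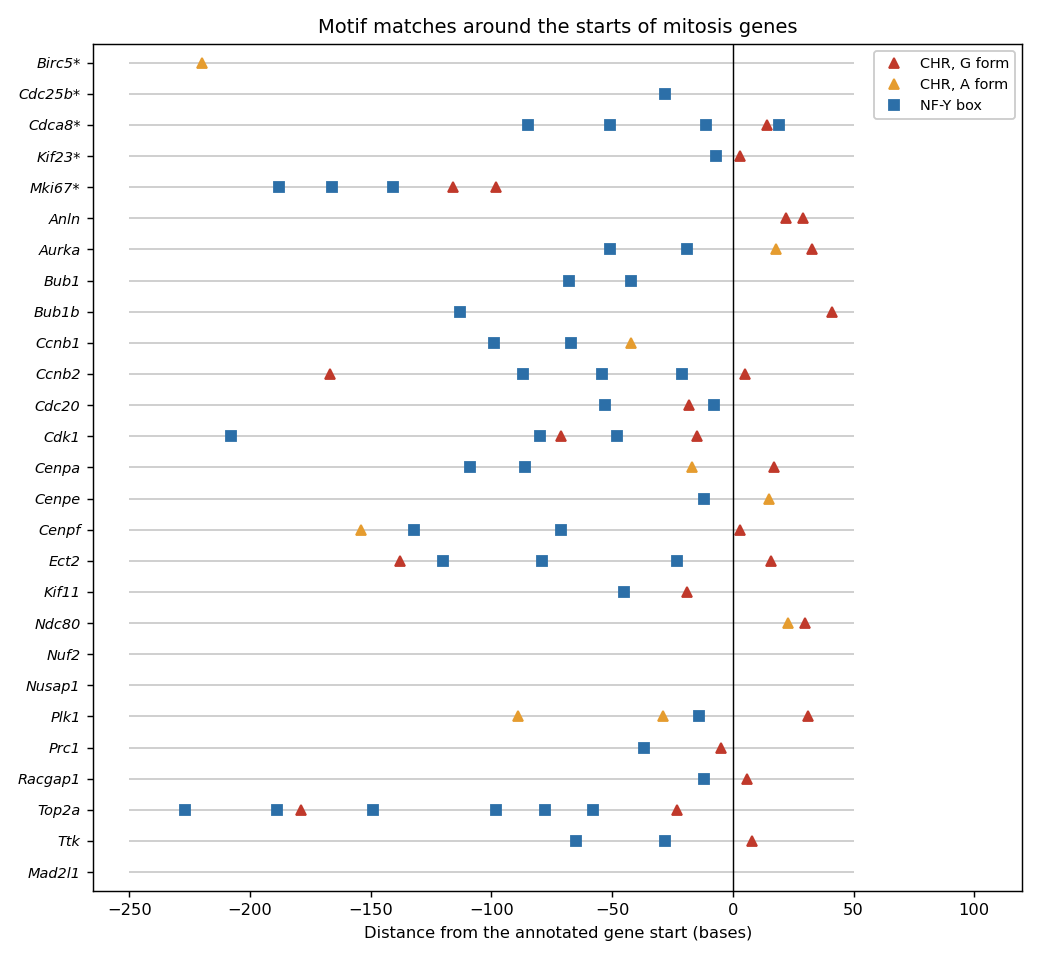
Matches to the CHR (triangles; the G form is TTTGAA and the A form TTTAAA) and to the NF-Y box (squares, CCAAT) along the promoter window of each of 27 genes, with the distance from the annotated gene start in bases on the horizontal axis. Asterisks mark the 5 genes called lower; for Ect2 and Prc1, which have 2 windows each, 1 window is drawn. Most rows hold a square upstream of a triangle.

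After 24 h of induction, 6 of the 32 genes fell and none rose. Mki67, the proliferation marker Ki-67 that coats mitotic chromosomes, was 3.57-fold lower, and Cdc25b, a phosphatase that activates Cdk1 at mitotic entry, was 4.33-fold lower. Incenp, Cdca8 and Birc5, which are subunits of the chromosomal passenger complex, were 2.57-fold, 1.95-fold and 1.46-fold lower, and the dim Kif23, a kinesin of the central spindle, was 2.39-fold lower. The other 26 genes, among them Ccnb1, Ccnb2, Cdk1 and Plk1, did not pass the test. All 32 genes were tested on log2(signal + 16) by the probe set with the highest mean (limma, adjusted over 31526 probe sets, called at an adjusted p under 0.05). The 6 falls are 18.8% of the 32, against 1.83% of all 16272 genes tested that were called lower and 5.13% called higher. Among genes with a mean signal over 10, 5 of 14 members (35.7%) were called lower, against 9.46% of all 1913 such genes called lower and 30.1% called higher. By probe set, 6 of 63 tested members were called lower, against 1.35% of all probe sets, and 0 higher, against 4.19%. At an unadjusted p under 0.05 in the same limma fit, 12 genes were lower and 1, Kif11, was higher, against 5.54% and 11.5% of all genes tested. The median log2 change was -0.10 over the 32 genes and 0.00 over all genes tested.

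How many of the genes were called lower depended on scaling between arrays. Bright probe sets as a whole read higher in induced arrays, with a median log2 change of 0.24 over the 2868 with a mean signal over 10. After quantile normalization this median was 0.06, and 11 of the 32 genes (34.4%) were called lower and 0 higher, against 3.67% of all genes in each direction. Scaling to 1 median of bright probe sets gave the same counts of 11 and 0, against 3.78% and 3.42% of all genes, and scaling to 1 trimmed mean gave 8 (25%) and 0, against 2.48% and 3.95%. Under the first 2 scalings, Top2a, Ccna2, Tpx2, Nusap1 and Cenpa joined the 6. Over all probe sets 1320 were called higher and 427 lower as deposited, and 958 higher and 838 lower after quantile normalization. The pseudocount of 16 is large beside most signals; with a pseudocount of 1, only Mki67 and Cdc25b were called (adjusted p = 0.0269 and 0.0137), against 0.387% of all genes called lower and 0.480% higher at that setting. By probe set the lower calls were 12 after quantile normalization, 12 after scaling to the bright median, 9 after scaling to the trimmed mean and 2 with a pseudocount of 1. The shares of all probe sets called lower were 2.66%, 2.75%, 1.85% and 0.320% in the same order, and those called higher were 3.04%, 2.86%, 3.28% and 0.349%.

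Signals below are the deposited MAS5 values in arbitrary units, with the mean ± SD over 3 arrays, and a log2 change is that of (signal + 16) with its 95% interval. A signal of 2 or lower is background, the highest value that 27 control probe sets for bacterial transcripts absent from the samples reached. The median signal of 18 hybridization controls added to every array was 2067 ± 53.5 in induced arrays and 2046 ± 77.8 in control arrays. The 5′ end of Gapdh read 27.5% ± 1.58 of its 3′ end in induced arrays and 16.5% ± 5.50 in control arrays (two-sided exact permutation test, p = 0.1, the lowest value possible with 3 arrays a group), and the part of this difference in the results was not tested. Control 2 stood apart with 346 signals of 0, against 4653 to 7818 on the other arrays. Without it 5 of the 6 genes were called lower, and Kif23 was not.

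Of both genes tied to chromatin of proliferating cells, Mki67 fell and Top2a did not pass the test. Mki67 (probe set 1426817_at) read 42.7, 28.1 and 33.1 in induced arrays, against 123.9, 116.5 and 131 in control arrays. The highest induced array was far below the lowest control array. The log2 change was -1.47 (-1.69 to -1.26; limma, adjusted p = 5.53e-05), and the ratio of means was 0.280, a ratio that 1.88% of the 1913 genes with a mean signal over 10 were at or under. Top2a, the topoisomerase that untangles sister chromatids (1454694_a_at), read 36.8, 39.1 and 33.1 in induced arrays, against 43.7, 53.9 and 39 in control arrays. One induced array reached the lowest control array, and the log2 change was -0.23 (-0.42 to -0.03; adjusted p = 0.239). After quantile normalization Top2a was called lower, at a log2 change of -0.44 (adjusted p = 0.0465).

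Among cyclins, Cdk1 and their activating phosphatases, only Cdc25b passed the test. Cdc25b (1421963_a_at) read 9.7, 10.5 and 14.2 in induced arrays, against 41.9, 52.4 and 54.8 in control arrays. The groups were far apart, with a log2 change of -1.26 (-1.45 to -1.06; limma, adjusted p = 7.97e-05). Ccna2, cyclin A2, which acts from S phase to early mitosis (1417910_at), read 35.2, 24.2 and 29.4 in induced arrays, against 34, 39.4 and 38.2 in control arrays. Induced 1 lay within the control values, and the log2 change was -0.23 (-0.42 to -0.04; adjusted p = 0.230). After quantile normalization Ccna2 was called lower, at a log2 change of -0.43 (limma, adjusted p = 0.00124). Its second probe set (1417911_at) averaged 18.4 ± 4.34 in induced arrays and 25.2 ± 6.42 in control arrays. Cdk1 itself, the kinase that these cyclins activate (1448314_at), read 13.9, 19.7 and 19 in induced arrays, against 14.3, 18.6 and 21.7 in control arrays. These values overlapped nearly throughout, with a log2 change of -0.03 (-0.23 to 0.18; adjusted p = 0.949), an interval that leaves room for a change in either direction. Ccnb2, a B-type cyclin (1450920_at), read 12.8, 14.8 and 14.9 in induced arrays, against 14.9, 19.5 and 14.9 in control arrays, and its log2 change was -0.10 (-0.25 to 0.05). Ccnb1, the main mitotic cyclin, was read only by 1419944_at, since the probe sets it shares with Gm5593 were left out. On the probe sets used, Ccnb1 and Cdc25c, the phosphatase closely related to Cdc25b, were dim, with means under 10 in both groups, and were not called.

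**Figure D2:**
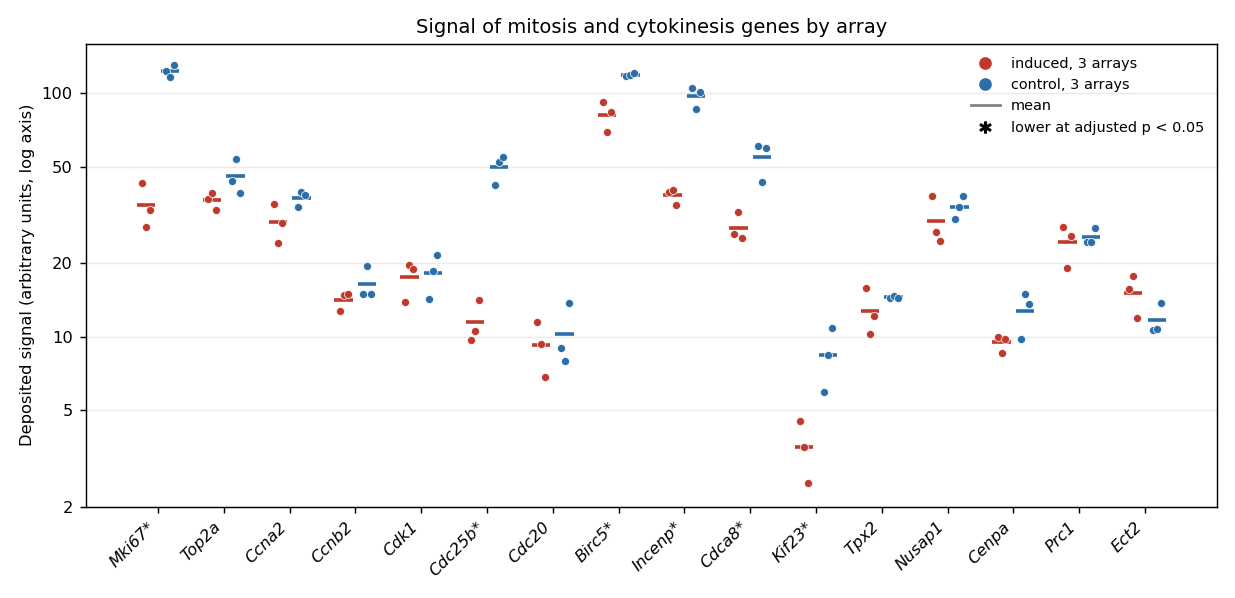
Deposited signal on a log axis, by array, of the 15 genes with a mean over 10 in either group and of Kif23, ordered by role; induced arrays stand left of control arrays, points are arrays and bars are means. Asterisks mark the 6 genes called lower, in which the groups do not touch.

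Of 6 genes for Aurora and Polo kinases and the chromosomal passenger complex, 3 fell, against 1.83% of all genes called lower. The complex corrects faulty spindle attachments and then marks the cleavage plane, and the 3 are its subunits. Incenp, the scaffold of the complex (1439436_x_at), read 39.5, 40.2 and 34.6 in induced arrays, against 105.7, 86.6 and 101.2 in control arrays. The groups were widely separated, with a log2 change of -1.07 (-1.24 to -0.91; limma, adjusted p = 7.49e-05). A dimmer Incenp probe set (1423092_at) read 2.4, 2.1 and 2.9 in induced arrays, against 3.9, 10 and 4.6 in control arrays. It was also without overlap and was not called (limma, adjusted p = 0.215). The remaining Incenp probe sets, 1423093_at and 1441314_at, were at background on every array, so the call rests on 1439436_x_at alone. Cdca8, or borealin (1436847_s_at), read 26.4, 32.4 and 25.4 in induced arrays, against 60.7, 43.4 and 59.8 in control arrays. All induced arrays were below control 2, the lowest control array, and the log2 change was -0.67 (-0.90 to -0.44; adjusted p = 0.00448). In the dimmer Cdca8 probe sets 1428481_s_at and 1428480_at the groups overlapped, and neither was called (limma, adjusted p = 0.535 and 0.368). Birc5, or survivin (1424278_a_at), read 92.1, 69.4 and 83.5 in induced arrays, against 117.4, 119.3 and 121.5 in control arrays. Its fall was smaller, with a log2 change of -0.48 (-0.66 to -0.30; adjusted p = 0.00748), and lost the call in 4 of 17 alternatives: a prior of the spread that followed intensity (adjusted p = 0.232), no filter (0.0540), the authors' deposited p-values (0.0668) and a pseudocount of 1 (0.565). The fourth subunit, the kinase Aurkb, read 4.1, 4.2 and 3.7 in induced arrays, against 3.2, 2.1 and 6.7 in control arrays. The control arrays spanned the induced ones (log2 change 0.01, -0.17 to 0.18). The kinases Aurka, which matures spindle poles, and Plk1, the Polo kinase, were also dim, with means under 10 in both groups, and were not called.

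Among kinesins and spindle assembly factors only Kif23 passed the test. Kif23 (1455990_at) read 4.5, 3.5 and 2.5 in induced arrays, against 5.9, 8.4 and 10.8 in control arrays. The groups did not touch, but the signals were close to background and the call was narrow (log2 change -0.32, -0.49 to -0.15; limma, adjusted p = 0.0441). Leaving out control 2, control 3 or any 1 induced array ended it, at adjusted p = 0.0571 to 0.174 in limma, and it was lost in 11 of 17 alternatives in all, among them no filter (0.143), a pseudocount of 64 (0.113) and the mean of its probe sets (0.399). Its other 2 probe sets were at background on every array. Nusap1, which bundles spindle microtubules (1416309_at), read 37.8, 26.9 and 24.7 in induced arrays, against 30.4, 34.1 and 37.8 in control arrays. Induced 1 matched the highest control array, and the log2 change was -0.14 (-0.37 to 0.09; adjusted p = 0.660). Tpx2, which activates Aurora A on the spindle (1428105_at), read 15.8, 10.2 and 12.2 in induced arrays, against 14.4, 14.7 and 14.4 in control arrays. Here too induced 1 was the highest array, and the test was not passed (adjusted p = 0.676). After quantile normalization Nusap1 and Tpx2 were called lower (limma, adjusted p = 0.0121 and 0.0289). Kif11, the motor that pushes spindle poles apart (1435306_a_at), was the one gene with all induced arrays above the control arrays, at 5.4, 6.7 and 6.2 against 3.1, 4.8 and 4.2. Its log2 change of 0.14 (0.02 to 0.26) was not called (adjusted p = 0.227), and groups without overlap in this direction occurred in 12.4% of all genes tested. The authors' deposited ratio of control over induced for this probe set was 0.992. In Kif11 probe set 1452314_at the groups overlapped, at 2.70 ± 2.21 in induced arrays and 2.83 ± 0.757 in control arrays, and 1452315_at was at background on every array. Kif20a, a motor of the central spindle, was dim and not called.

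None of the 5 centromere and kinetochore genes passed the test. Cenpa, the histone variant that marks centromeres (1450842_a_at), read 10, 8.6 and 9.8 in induced arrays, against 9.8, 15 and 13.6 in control arrays. Only control 1 lay among the induced values, the log2 change was -0.17 (-0.33 to -0.01; limma, adjusted p = 0.289), and after quantile normalization Cenpa was called lower (adjusted p = 0.00925). The kinetochore motor Cenpe read 1.4, 3.1 and 2.8 in induced arrays, against 3.3, 7.1 and 4.9 in control arrays, and Cenpf, a large protein of the outer kinetochore, 1.5, 2.5 and 2.1 against 6.1, 4.3 and 3.3. Both had all induced arrays below all control arrays, at signals near background (adjusted p = 0.230 and 0.142). Ndc80 and Nuf2, which together contact the microtubule, were dim and not called.

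Of the spindle checkpoint genes and their target, none passed the test. Cdc20, the activator of the anaphase promoting complex that the checkpoint blocks (1439377_x_at), read 11.5, 9.3 and 6.8 in induced arrays, against 9, 7.9 and 13.7 in control arrays. The groups overlapped throughout (limma, adjusted p = 0.891). Ttk, the kinase that starts the checkpoint, read 2.1, 1.1 and 2.1 in induced arrays, against 3.9, 2.5 and 4 in control arrays, without overlap and without a call (adjusted p = 0.288). The checkpoint kinase Bub1 and its relative Bub1b had means under 10 in both groups and were not called.

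None of the 4 genes grouped under cytokinesis passed the test. Prc1, which bundles the central spindle (1423775_s_at), read 28.3, 19.1 and 26 in induced arrays, against 24.4, 24.4 and 28 in control arrays. The induced arrays spanned the control values, with 1 above and 1 below all of them (log2 change -0.05, -0.24 to 0.15; limma, adjusted p = 0.898). Ect2, an exchange factor needed to form the contractile ring (1419513_a_at), read 15.7, 17.7 and 11.9 in induced arrays, against 10.6, 10.7 and 13.8 in control arrays. It was the one gene with a mean signal over 10 whose mean was higher in induced arrays, at a ratio of 1.29 (log2 change 0.16, -0.01 to 0.34; adjusted p = 0.395). After quantile normalization its log2 change was 0.03. The ring scaffold Anln and Racgap1, the partner of Kif23 in centralspindlin, were dim and not called. Over the 17 members with means at or under 10 in both groups, of which 1, Kif23, was called, the group means ran from 1.27 to 8.37.

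**Figure D3:**
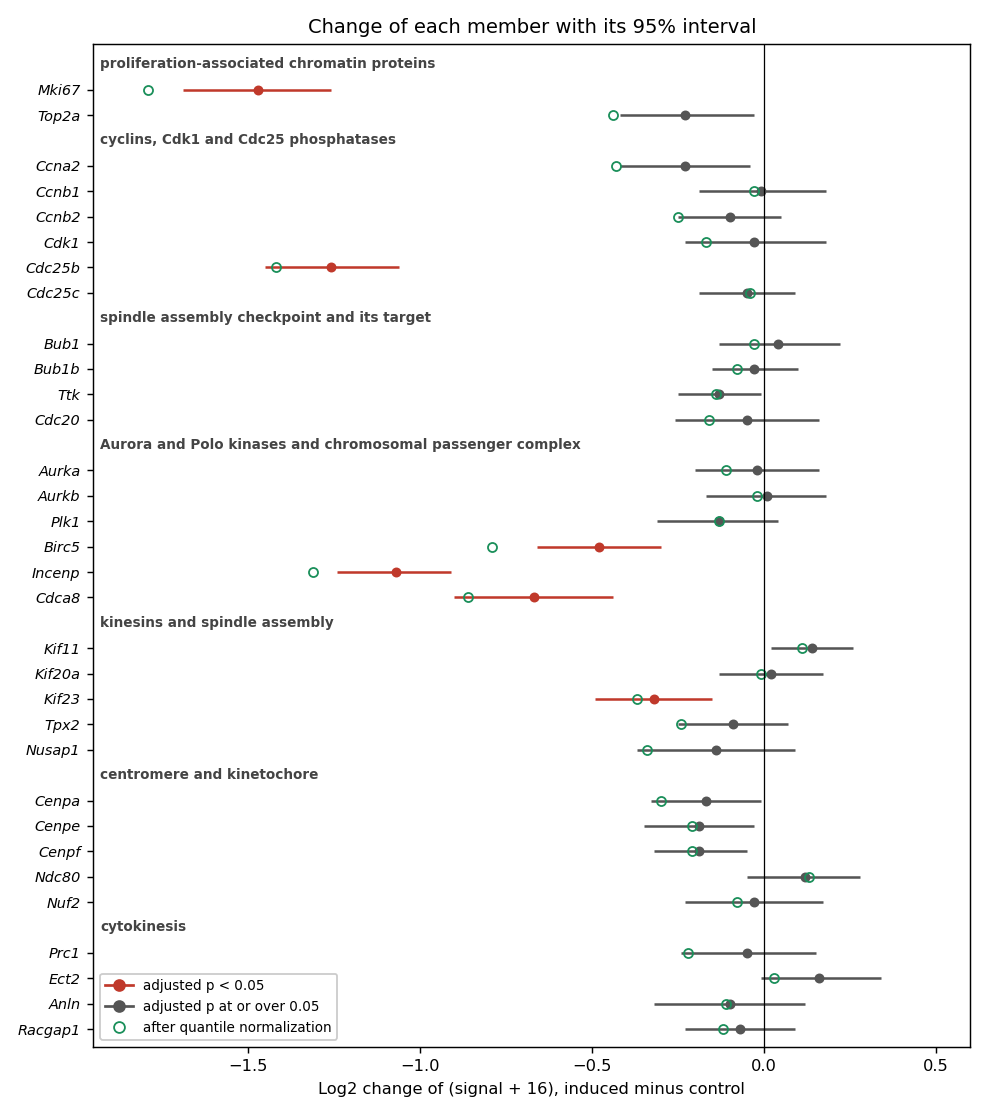
Log2 change of (signal + 16), induced minus control, of 32 genes grouped by role, with the 95% interval of the limma fit; red marks an adjusted p under 0.05 and open circles the change after quantile normalization. The 6 red genes lie between -1.47 and -0.32, and most open circles lie left of the filled ones.

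In all, 9 of the 32 genes (28.1%) had every induced array below every control array, against 7.42% of all genes tested, and 1 had every induced array above. The 9 were the 6 called genes with Ttk, Cenpe and Cenpf. The summed signal of the 32 probe sets was 500.8, 439.9 and 440.0 in induced arrays, against 719.0, 749.5 and 790.4 in control arrays. Summed over the 26 genes that were not called it was 286, 256 and 247 in induced arrays, against 264, 323 and 311 in control arrays, so that induced 1 lay within the control values. Of the 15 genes with a mean over 10 in either group, 8 had their highest induced value on induced 1, the array on which bright probe sets as a whole read highest.

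For 13 of the 14 members with a mean signal over 10, the authors' deposited table gave a lower ratio of induced over control than the deposited signals. The same held for 83.8% of all such genes. By mean deposited signals, 26 of the 32 genes were lower in induced arrays. In the authors' deposited table the ratio of control over induced was above 1 for 28 of the 32 genes, against 50.2% of all genes tested, and the unadjusted p was under 0.05 for 14, of which 13 were lower in induced arrays and 1, Ndc80, was higher, against 7.71% and 10.2% of all genes tested. The ratio in the authors' deposited table was 6.40 for Cdc25b, 4.56 for Mki67, 3.02 for Incenp, 2.31 for Kif23, 2.08 for Cdca8 and 1.82 for Birc5. Top2a and Ccna2, which were not called on the signals, had ratios of 1.80 and 1.81 in the authors' deposited table, with unadjusted p-values of 0.00107 and 0.00118. After adjustment of the p-values of the authors' deposited table over the same probe sets, 3 members, Mki67, Cdc25b and Incenp, were called lower and 0 higher, against 1.24% and 1.28% of all genes (by probe set 3 and 0, against 0.869% and 1.08%). The authors' deposited 2-fold list held 6 of the members' 67 probe sets, all lower in induced arrays, against 0.999% of all probe sets; these were 1 each of Mki67, Cdc25b, Incenp and Kif23 and a pair of Cdca8. One of that pair (1428481_s_at) had a ratio of 3.41 in the authors' deposited table while its signals overlapped, at 10.5, 6.5 and 5.4 in induced arrays against 12.5, 17 and 6.1 in control arrays. For the 14 members with a mean signal over 10, the median log2 ratio of induced over control was -0.33 by mean signals and -0.82 by the authors' deposited table, and for all 1913 such genes 0.36 and 0.12. The values behind that table are not stated, and both sets of values come from the same arrays.

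**Figure D4:**
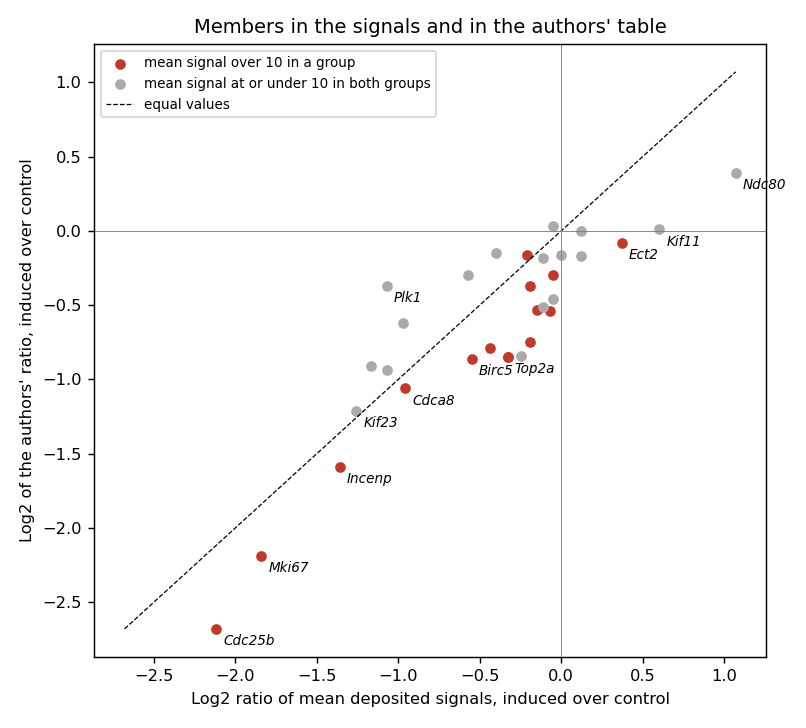
Log2 ratio of induced over control by mean deposited signals (horizontal) and by the authors' deposited table (vertical) for 32 genes; the dashed line marks equal values. Of the 14 genes with a mean signal over 10 over all arrays, 13 lie below the line, as do 83.8% of all such genes.

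Among 90 further mitosis genes, 12 fell and 3 rose, with a median log2 change of -0.07, against 1.83% of all genes called lower and 5.13% higher. The count of 12 was 22 after quantile normalization or bright-median scaling, 6 to 11 with 1 array left out and 0 with a pseudocount of 1. Condensins and cohesins, which fold chromosomes and hold sister chromatids together, fell in 4 of 13 and rose in 0. Of these, the condensin subunit Ncapd2 read 8.4, 6.5 and 4.3 in induced arrays, against 18.6, 17 and 14.9 in control arrays, well apart (limma, adjusted p = 0.00241). The cohesin subunit Rad21 averaged 22.5 ± 5.02 in induced arrays and 41.2 ± 1.90 in control arrays, and the condensin genes Ncapg and Smc2 fell at ratios of 0.610 and 0.576. Further kinesins and spindle proteins fell in 4 of 17 and rose in 0: the spindle pole protein Aspm to 5.03 ± 1.62 in induced arrays, against 11.8 ± 0.651 in control arrays, Numa1 at a ratio of 0.680, Spag5 at 0.476 and the microtubule destabiliser Stmn1 at 0.769. The anaphase promoting complex and its regulators fell in 1 of 17, Ube2c, its ubiquitin-conjugating enzyme, which averaged 25.9 ± 4.61 in induced arrays and 45.9 ± 9.73 in control arrays.

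Of 18 further kinetochore and checkpoint genes, Spc25 and Spc24 fell and Zwint rose. Spc25 and Spc24 form a complex with Ndc80 and Nuf2; Spc25 averaged 4.73 ± 1.94 in induced arrays and 13.8 ± 3.96 in control arrays (limma, adjusted p = 0.0141). Zwint, which links checkpoint proteins to the kinetochore (1423724_at), read 20.5, 19.9 and 18.3 in induced arrays, against 7.1, 5.9 and 3.7 in control arrays. All induced arrays were far above the control arrays, with a log2 change of 0.72 and a standard error of 0.07 (adjusted p = 3.18e-04). Of 9 further cytokinesis genes, the kinase gene Cit fell, at 2.37 ± 1.21 in induced arrays and 6.57 ± 0.839 in control arrays. Rhoa, the GTPase that assembles the ring and also acts outside division, rose at a ratio of 1.30, and Chmp4b, of the machinery that cuts the last bridge, at 1.96. The ratio of Rhoa was near 1.28, the median of all 1913 genes with a mean signal over 10. After quantile normalization 2 of these 9 genes were called lower and 1 higher. None of 16 mitotic entry kinases and regulators passed the test.

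DNA replication genes, set beside the members as the preceding step of the cycle, fell in 3 of 38 and rose in 2. Of all genes tested, 1.83% were called lower and 5.13% higher. The median log2 change of the replication genes was -0.03. After quantile normalization 8 replication genes were called lower and 1 higher, at the bright median 9 and 1, and with a pseudocount of 1 none in either direction. Rrm2, a subunit of ribonucleotide reductase, averaged 257 ± 37.3 in induced arrays and 544 ± 38 in control arrays, Fen1, a flap nuclease, 72.2 ± 15.1 and 135 ± 13.3, and the helicase subunit Mcm3 14.1 ± 3.27 and 23.5 ± 1.45. Mcm6, of the same helicase, rose at a ratio of 2.32, and Pcna, the sliding clamp, at 1.36 (limma, adjusted p = 0.0347). Over all 1913 genes with a mean signal over 10 the median ratio was 1.28, so the rise of Pcna was close to that of bright genes at large. Whether members and replication genes differ in their shift was not tested.

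**Figure D5:**
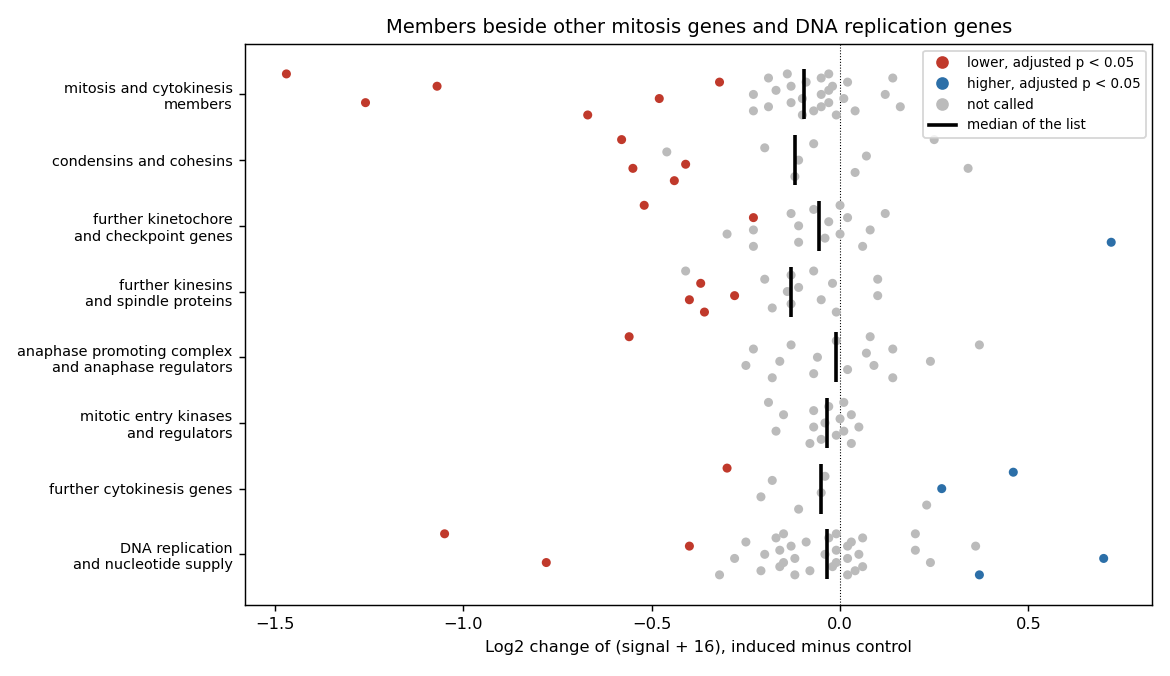
Log2 change of (signal + 16), induced minus control, of each tested gene of the members, of 6 lists of further mitosis genes and of DNA replication genes; red genes were called lower, blue ones higher, and black bars are medians. The medians lie between -0.13 and -0.01, and the lowest points of the plot are Mki67 and Cdc25b.

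Markers of marrow cell types were read on the same arrays. Of all genes tested, 1.83% were called lower and 5.13% higher, and of genes with a mean signal over 10, 9.46% and 30.1%. After quantile normalization the share of all genes was 3.67% in each direction. Erythroblast markers were called lower in 10 of 11 and summed to 431 to 529 in induced arrays, against 1410 to 1607 in control arrays. Promyelocyte markers were called lower in 4 of 5 (Mpo, Elane, Prtn3 and Ms4a3) and summed to 97.8 to 131 in induced arrays, against 209 to 254 in control arrays. Early B cell markers were called lower in 1 of 7, Dntt, and summed to 52.5 to 77.3 in induced arrays, against 84.5 to 99.8 in control arrays, with Pax5 at background on every array. Without Dntt these sums were 44.8 to 66.7 in induced arrays and 54.6 to 59.5 in control arrays, and the median log2 change of the 7 was 0.01. Mature neutrophil markers were called higher in 3 of 7 (Il1r2, Slpi and Il1b) and summed to 208 to 259 in induced arrays, against 144 to 170 in control arrays. Slpi averaged 81.3 ± 14.1 in induced arrays and 32.9 ± 6.42 in control arrays. Mmp9, the brightest of the list, was level at 82.2 ± 6.05 and 83.8 ± 3.30, and Cxcr2, Csf3r and Mmp8 were not called. Mature B cell markers were called higher in 3 of 6 (Cd74, H2-Ab1 and Ighm), with sums of 187 to 233 in induced arrays and 76.6 to 76.8 in control arrays. Eosinophil markers were called higher in 3 of 4 (Prg2, Epx and Ear1), with sums of 222 to 272 in induced arrays and 22.3 to 33.2 in control arrays and Il5ra at background. Macrophage markers were called higher in 4 of 6 (C1qb, Adgre1, Vcam1 and Csf1r), with sums of 84.7 to 105 in induced arrays and 41.4 to 50.2 in control arrays. Of megakaryocyte markers, 2 of 6 (Pf4 and Ppbp) were called higher, with sums of 35.7 to 55.2 in induced arrays and 19.0 to 28.2 in control arrays. The others, Itga2b, Gp9, Gp1bb and Vwf, had means under the background signal of 2 in both groups. Of T and NK cell markers 0 of 6 were called, with sums of 15.2 to 17 in induced arrays and 10.9 to 13.6 in control arrays and Cd3g at background. After quantile normalization the calls were 11 lower for erythroblast, 5 for promyelocyte and 2 for early B cell markers, and 2 higher for macrophage markers; the counts of the other marker lists were as given. The part of these shifts in the values of the mitosis genes was not tested.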

How the data were processed

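Per the submitters' processing notes the authors used MAS5, which gave a signal intensity on a linear scale for all 45101 probe sets; its version and scaling target are not given in the sources used here. Per the file headers, the authors' deposited ANOVA table holds, for every probe set, a p-value without adjustment and a ratio, control divided by induced; its software is not stated.

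Signals were taken as deposited. After 64 control probe sets were left out, the 31526 whose mean log2(signal + 16) exceeded the 30th percentile were fitted with limma 3.58.1 under R 4.3.3 (lmFit, eBayes; Benjamini-Hochberg adjustment). Changes on this scale understate those of dim genes. A gene was read from its brightest tested probe set. The p-values reflect only the spread between 3 pools a group, and the number of arrays limits the precision. Groups came from the labels. The stem and progenitor cell marker list is not reported here. The fit was tested on simulated data.

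The members, gene lists and tests were chosen with earlier results of these data known. Array values are given for members called or with a mean signal over 10 in a group, and for 5 dim members (Aurkb, Kif11, Ttk, Cenpe and Cenpf) chosen after their values were seen. From other lists the called genes are named, at most 4 a list by smallest p, and Pcna, the called markers and some markers not called beyond that rule. Alternatives were 3 other scalings, pseudocounts of 1 and 64, no filter or a 60th percentile filter, an intensity trend, the replicate number as a block, the authors' p-values, averaging a gene's probe sets, and omitting each array.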

Additional observations from a re-analysis of the deposited data

How the results depend on the processing

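No member was called higher under any alternative run. Over all genes tested, 297 were called lower and 835 higher as deposited, 597 and 597 after quantile normalization, and 615 and 557 at the bright median. Member genes called lower (6 in the report) numbered 11 after quantile normalization, 11 after scaling to the bright median, 3 with the authors' p-values and 2 with a pseudocount of 1, and 5 to 6 when 1 array was left out. Member probe sets called lower (6) numbered 12, 12, 3 and 2 under these settings, and 5 to 6 with an array left out. All probe sets called lower (427) and higher (1320) numbered 838 and 958 after quantile normalization, 866 and 901 at the bright median, 274 and 339 with the authors' p-values, 246 and 595 without a filter, 101 and 110 with a pseudocount of 1 and 286 and 801 with one of 64. With 1 array left out they were 277 (without induced 3) to 437 lower and 879 (without control 2) to 1363 higher.

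Further mitosis genes called lower (12) and higher (3) numbered 22 and 2 after quantile normalization and at the bright median, 7 and 2 when probe sets of a gene were averaged, 8 and 0 with the authors' p-values, 4 and 1 without a filter, 0 and 0 with a pseudocount of 1 and 6 and 1 with one of 64. With 1 array left out they were 6 to 11 lower and 1 to 5 higher; there were 6 lower without control 3 or induced 3 and 7 without induced 2, and 1 higher without any 1 control array and 5 without induced 2. Replication genes called lower (3) and higher (2) numbered 8 and 1 after quantile normalization, 9 and 1 at the bright median, 5 and 1 at the trimmed mean, 2 and 0 with the authors' p-values, 0 and 0 with a pseudocount of 1 and 3 and 1 with one of 64. The intensity trend, averaging probe sets and no filter each left 2 lower and 1 higher. With 1 array left out they were 2 to 5 lower (5 without induced 1) and 1 to 2 higher (1 without control 1, control 2, induced 1 or induced 3). The Gapdh difference of 11 percentage points ranged over 9.04 to 14.1. The cause of these changes was not tested.

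Arrays with the same replicate number did not deviate together (correlations of -0.07, 0.04 and -0.03). With 3 arrays a group this cannot show whether equal numbers stand for shared handling. With the replicate number as a block, 5 member genes were called lower (Kif23 was not), 325 probe sets lower and 1052 higher, 8 further mitosis genes lower and 1 higher, and 3 replication genes lower and 1 higher.

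Most members are dim: 17 of 32 had means at or under 10, where a fall to background is a small change of log2(signal + 16), and a missed call there does not show an equal level.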
